A study of Mus musculus with 4 samples.

Results

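A set of 8 genes that carry, activate, bind or answer to thyroid hormone were examined in mouse prefrontal cortex: the thyroxine transporter gene Slco1c1, the hormone-binding protein gene Crym, the activating deiodinase gene Dio2, the receptor genes Thra and Thrb, the hormone-induced genes Hr and Klf9, and Trhr, which encodes the receptor for thyrotropin-releasing hormone (TRH). Every probe set that the platform annotation pairs with exactly 1 gene symbol, that symbol being 1 of the 8, was taken, whatever its values. This gave 20 probe sets of 8 genes, out of 45037 probe sets and 18193 genes measured under a single symbol. Klf9 was read by 7 probe sets, Dio2 and Thra by 3 each, Hr and Trhr by 2 each, and Slco1c1, Crym and Thrb by 1 each. The study compared mice exposed to repeated social threat (environment labelled HighThreat) with control mice (LowThreat), and asked which transcripts differ between them. Each group held 2 pools, each pool was the total RNA of 5 mice on 1 Affymetrix MOE430 2.0 array, and neither strain, sex, age nor the length of exposure is given in the sources used here. Variation among single mice is averaged out within a pool and cannot be read from these arrays, and no label tells whether cages or days differed between pools.

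Thyroid hormone reaches the brain mainly as thyroxine, which transporters carry across the blood-brain barrier and into astrocytes. There the deiodinase Dio2 converts it into triiodothyronine, the form that binds the nuclear receptors encoded by Thra and Thrb. The bound receptors pair with retinoid X receptors on DNA and exchange corepressors for coactivators at their target genes. In developing rodents the hormone promotes the differentiation of oligodendrocyte precursors and the expression of myelin genes, and a lack of it delays myelination.

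Of the 8 genes, only Trhr had every one of its probe sets higher in both threat pools than in both control pools with a 95% confidence interval of the difference above 0. Slco1c1, Crym, Dio2, both receptor genes and Hr had intervals that included 0 at each of their probe sets, and the probe sets of Klf9 pointed both ways. No probe set of these genes had an adjusted p under 0.05 in limma's test (adjusted over all 45037 probe sets, range 0.41 to 0.99 over the 20), nor did any of the others on the array (0% called, smallest adjusted p 0.28). By contrast, all 5 measured myelin genes known to respond to the hormone had lower values in threat (median log2 difference -0.97). Differences are threat minus control on the log2 scale of the deposited values, so that a positive one means higher in threat.

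The arrays correlated with each other between 0.9942 and 0.9961 across probe sets. All 4 pools of 19 of the 20 probe sets lay above 4.25, the highest value of 27 Bacillus control probe sets that match no mouse transcript and serve here as a guide to background. In the check of the tissue, none of 7 measured markers of excitatory cortical neurons lay at or below that value in all pools. The members of that list with the largest differences were the deep-layer factor gene Tbr1 (-0.53), Neurod6 (-0.39) and the vesicular glutamate transporter gene Slc17a7 (0.23), with separate groups each. Its median of 0.045 had no settled sign, at -0.25 without control pool 1 and 0.21 without control pool 2. Of 6 measured markers of the hypothalamus and its tanycytes, which also express Dio2, 5 had a pool above that value, and Rax, the tanycyte marker, lay at or below it in all pools. Levels of different probe sets are not compared with each other, since each has its own binding strength. Where linear levels are summed over a list, the sums are compared between pools only, and the brightest probe sets weigh most in them. In bulk tissue, fewer cells of a type and less RNA per cell cannot be told apart.

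**Figure D1:**
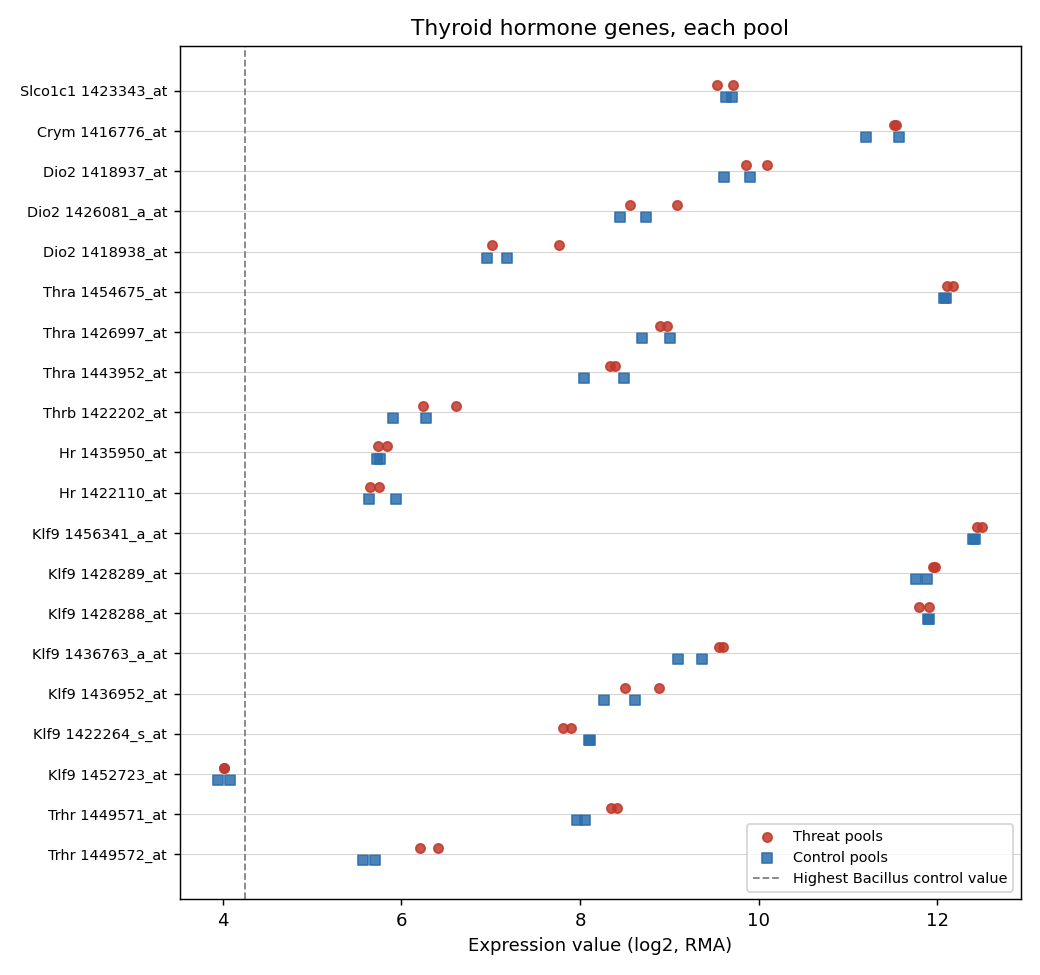
Expression values (log2, horizontal axis) of the 20 probe sets of the 8 thyroid hormone genes, 1 row each, with red circles for the 2 threat pools and blue squares for the 2 control pools. The circles lie right of both squares in both rows of Trhr, while 1 probe set of Klf9 lies left of the dashed line at 4.25, the highest Bacillus control value.

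Slco1c1, which in mice takes up thyroxine at the blood-brain barrier and in astrocytes, did not separate the groups. Its probe set measured 9.53 and 9.72 in the threat pools, against 9.64 and 9.70 in the control pools, a log2 difference of -0.042 ± 0.11 (SE, n = 2 pools a group) with a 95% interval of -0.31 to 0.22. Both control pools lay between the threat pools. The sign turned to 0.050 without threat pool 1. Over 10 endothelial markers, cells that carry this transporter, the summed level on the linear scale was 1966 and 2413 in the threat pools, against 2186 and 2847 in the control pools, with 8 markers below 0 and 5 with both threat pools below both control pools (18.8% of all genes, each by its brightest probe set). Over 10 astrocyte markers it was 24024 and 27088 in the threat pools, against 28622 and 28794 in the control pools, with 8 below 0, 5 with both threat pools lower and a median difference of -0.12 that came to -0.039 without threat pool 1 and -0.20 without threat pool 2. Vwf, the clotting factor carrier of endothelium, was at -1.08, Pecam1 at -0.63 and Cldn5, a barrier tight junction gene, at -0.34. Vwf was at -0.59 without threat pool 1, and Pecam1 at -0.37 and Cldn5 at -0.21 without control pool 2. The astrocyte markers ranged from -0.59 for Gfap, the filament gene, to 0.034 for S100b by the brightest probe set of each. The mean over the 2 probe sets of S100b was instead -0.16. The part of cell numbers in the value of Slco1c1 was not tested.

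Crym encodes mu-crystallin, a cytosolic protein that holds triiodothyronine. It measured 11.54 and 11.52 in the threat pools, against 11.57 and 11.20 in the control pools. The threat pools were close together and control pool 1 was the highest of the 4, so the groups overlapped. The difference was 0.14 ± 0.14 (SE), with an interval of -0.21 to 0.49, and it came to -0.041 without control pool 2 and 0.32 without control pool 1.

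Dio2 had all 3 of its probe sets above 0 and none with separate groups. The first (1418937_at) measured 9.86 and 10.09 in the threat pools, against 9.61 and 9.90 in the control pools, a difference of 0.22 ± 0.14 (SE; interval -0.13 to 0.57). The second (1426081_a_at) measured 8.56 and 9.09 in the threat pools, against 8.44 and 8.74 in the control pools, a difference of 0.23 ± 0.20. Probe set 1418938_at measured 7.02 and 7.77 in the threat pools, against 6.95 and 7.19 in the control pools, a difference of 0.32 ± 0.25. In each probe set threat pool 2 was the highest and control pool 1 the lowest, and threat pool 1 lay below control pool 2. Without threat pool 2 the differences of 1426081_a_at and 1418938_at came to -0.031 and -0.054, and that of 1418937_at to 0.11. Probe sets of 1 gene on the same arrays are not independent readings of the groups.

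The promoter of Dio2 is shown because its cAMP response element is known, in rodents and humans, to link the enzyme to adrenergic signals. In the 250 bases upstream of its RefSeq start (GRCm38.p6, chr12:90739039-90739288, minus strand, printed 5′ to 3′) the element TGACGTCA was found once, in capitals, with its first base 95 bases before the start. This palindrome, read on both strands, occurs in 1.55% of 32851 RefSeq promoter windows of the same length.
Dio2: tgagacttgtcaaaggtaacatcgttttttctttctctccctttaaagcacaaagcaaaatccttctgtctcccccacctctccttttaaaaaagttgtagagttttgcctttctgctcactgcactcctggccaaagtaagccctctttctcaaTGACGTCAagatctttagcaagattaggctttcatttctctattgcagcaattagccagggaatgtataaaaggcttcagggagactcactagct

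Thra, the main receptor gene of the brain, encodes a hormone-binding receptor and a splice form that does not bind hormone. Its 3 probe sets lay within 0.1 of 0. The first (1454675_at) measured 12.17 and 12.11 in the threat pools, against 12.08 and 12.10 in the control pools, a difference of 0.051 ± 0.090 (SE; interval -0.17 to 0.28). Here both threat pools were above both control pools, but threat pool 2 exceeded control pool 2 by 0.0064. Probe sets 1426997_at and 1443952_at were at 0.086 ± 0.13 and 0.090 ± 0.16, with the threat pools inside the range of the control pools, and turned to -0.070 and -0.13 without control pool 1. Which splice form each probe set reads was not tested. Nr1d1, a clock repressor gene whose end overlaps that of Thra on the opposite strand, was at -0.088 ± 0.12 and overlapped between groups.

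Thrb, the second receptor gene, was read by 1 probe set. It measured 6.24 and 6.61 in the threat pools, against 5.91 and 6.28 in the control pools. Threat pool 2 was the highest and control pool 1 the lowest, and control pool 2 lay just above threat pool 1. The difference was 0.33 ± 0.18 (SE), with an interval of -0.12 to 0.78, and ranged from 0.14 without threat pool 2 to 0.51 without threat pool 1.

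Thrb has more than 1 RefSeq start, and the window of the upstream one is shown because it holds a hormone receptor half-site. The half-site AGGTCA, searched on both strands, stands once in the 250 bases before that start (GRCm38.p6, chr14:17660710-17660959, plus strand), in capitals, with its first base 184 bases upstream. It occurs in 14.0% of all such windows, so its presence here is not unusual. The full direct repeat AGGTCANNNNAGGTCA, which contains the half-site, is in 5 of the 32851 windows and in none of the 5 windows found for Slco1c1, Dio2, Thrb and Klf9.
Thrb: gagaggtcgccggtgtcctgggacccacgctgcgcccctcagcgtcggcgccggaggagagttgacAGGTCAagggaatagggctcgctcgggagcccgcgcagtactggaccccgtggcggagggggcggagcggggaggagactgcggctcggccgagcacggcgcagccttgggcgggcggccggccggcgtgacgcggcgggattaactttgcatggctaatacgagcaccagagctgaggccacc

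Hr encodes a corepressor that binds thyroid hormone receptors and is itself induced by the hormone in rodent brain. Its first probe set (1435950_at) measured 5.84 and 5.74 in the threat pools, against 5.76 and 5.73 in the control pools, a difference of 0.044 ± 0.093 (SE; interval -0.19 to 0.28). Its second (1422110_at) measured 5.65 and 5.75 in the threat pools, against 5.93 and 5.64 in the control pools, a difference of -0.086 ± 0.13 (interval -0.41 to 0.24). The groups overlapped in both, and the sign of each turned when 1 pool was left out, to -0.0061 without threat pool 1 and to 0.062 without control pool 1.

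Klf9, a Krüppel-like factor induced by thyroid hormone and by glucocorticoids, is known in rodents to act in oligodendrocyte differentiation. Its 7 probe sets disagreed, with 4 above 0 and 3 below. The highest difference was that of 1436763_a_at, which measured 9.55 and 9.60 in the threat pools, against 9.37 and 9.10 in the control pools (0.34 ± 0.12, SE; interval 0.042 to 0.64). The lowest was that of 1422264_s_at, at 7.81 and 7.90 in the threat pools, against 8.10 and 8.11 in the control pools (-0.25 ± 0.092; interval -0.48 to -0.020). These probe sets separated the groups in opposite directions, and their intervals do not overlap. In limma's test their unadjusted p was 0.032 and 0.038, and their adjusted p 0.45 and 0.46. The difference of 1436763_a_at came to 0.21 without control pool 2, and that of 1422264_s_at stayed between -0.30 and -0.20 with each pool left out. A suffix of s marks a probe set whose probes can match more than 1 transcript.

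The other probe sets of Klf9 lay closer to 0 or overlapped between groups. The brightest (1456341_a_at) measured 12.45 and 12.51 in the threat pools, against 12.40 and 12.42 in the control pools, a difference of 0.071 ± 0.089. Probe set 1428289_at also had both threat pools above both control pools, at 11.97 and 11.96, against 11.76 and 11.89, a difference of 0.14 ± 0.095. Probe set 1428288_at was at -0.057 ± 0.094 and 1436952_at at 0.26 ± 0.18, both with overlapping groups. The last (1452723_at) measured 4.01 in both threat pools, against 4.08 and 3.94 in the control pools, which is within the range of the Bacillus controls, so it gives no level. The mean difference over all 7 was 0.070, next to 0.071 for the brightest.

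The upstream window of Klf9 is shown because the gene is the receptor target among the 8 with the most readings. In the 250 bases before its start (GRCm38.p6, chr19:23140976-23141225, plus strand) neither TGACGTCA nor AGGTCA was found, so no base is in capitals, which says only that these letters are not in this window.
Klf9: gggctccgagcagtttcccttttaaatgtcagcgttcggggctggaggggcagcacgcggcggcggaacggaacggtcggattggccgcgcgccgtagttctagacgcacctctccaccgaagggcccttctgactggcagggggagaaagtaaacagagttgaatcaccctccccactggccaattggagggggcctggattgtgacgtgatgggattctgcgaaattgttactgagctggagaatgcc

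Trhr encodes the receptor through which TRH acts, in the pituitary to release thyrotropin and in the brain as a neuropeptide. Probe set 1449571_at measured 8.41 and 8.34 in the threat pools, against 8.06 and 7.97 in the control pools, a difference of 0.36 ± 0.094 (SE; interval 0.13 to 0.60) or 1.29-fold. Probe set 1449572_at measured 6.21 and 6.41 in the threat pools, against 5.57 and 5.70 in the control pools, a difference of 0.67 ± 0.11 (interval 0.39 to 0.96) or 1.60-fold. In both, the lowest threat pool was above the highest control pool by more than the distance between the pools of either group. In limma's test the unadjusted p was 0.0097 and 0.0013, and the adjusted p 0.43 and 0.41. The size of the second was above that of 99.4% of all probe sets on the array, and that of the first above 94.6%. Leaving out 1 pool kept the first between 0.32 and 0.41 and the second between 0.58 and 0.77. Both probe sets were designed on the same sequence record, per the platform annotation.

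Trh, the gene of the peptide that binds this receptor, lay the other way. It measured 5.51 and 5.40 in the threat pools, against 5.84 and 5.71 in the control pools, a difference of -0.32 ± 0.10 (SE; unadjusted p = 0.022 and adjusted p = 0.44 in limma's test). Both threat pools were below both control pools. Trhr2, the second TRH receptor gene of mice, was at 0.11 ± 0.14, Tshr, the thyrotropin receptor gene, at -0.11 ± 0.088 and Tshb, a thyrotropin subunit gene, at 0.083 ± 0.15. Of 6 genes on this list of TRH and the pituitary axis, each by its brightest probe set, 2 had both threat pools below both control pools (Trh and Tshr, where 18.8% of all genes did so) and none had them above (26.2%). The other probe sets of Tshr, at 0.036 and -0.076, overlapped between groups. Oxt, a hypothalamic peptide gene, was also lower in both threat pools, at -0.43 ± 0.12. Over 6 markers of hypothalamus the summed linear level was 383 and 359 in the threat pools, against 457 and 384 in the control pools, with 4 markers below 0 and Rax in the background range. Oxt had the highest values of the list and weighs most in this sum, and 2 markers lay above 0. The median difference of the list was -0.13, and ranged from -0.19 to -0.051 with 1 pool left out. The part of tissue outside the cortex in the value of Trh was not tested.

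**Figure D2:**
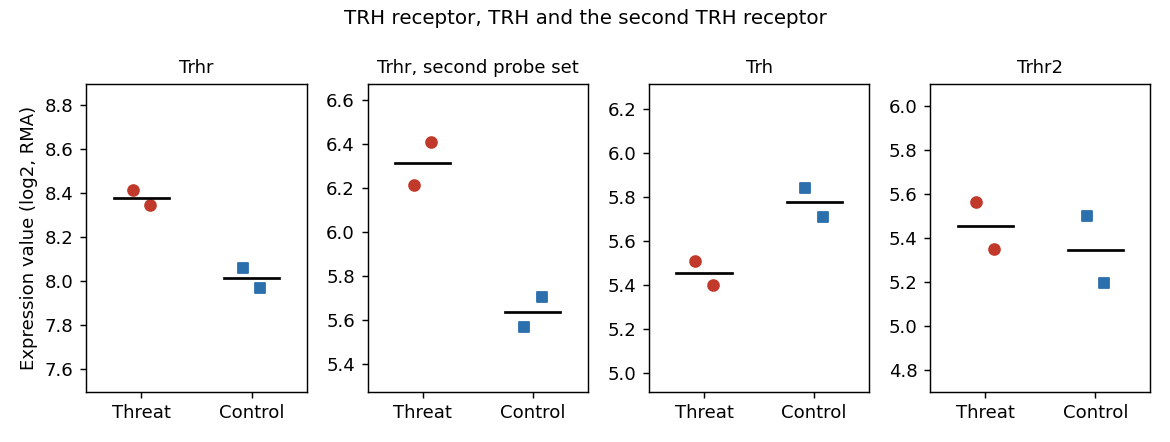
Expression values (log2, vertical axes of equal span) of both Trhr probe sets, Trh and Trhr2, with red circles for the threat pools, blue squares for the control pools and black lines for the mean of each group. Threat lay above control by 0.36 and 0.67 in the Trhr panels and below it by 0.32 in the Trh panel (difference -0.32), while the groups overlapped for Trhr2.

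Counted together, 15 of the 20 probe sets lay above 0 and 5 below, with a median of 0.11, against a median of 0.015 over all probe sets and 0.058 over those brighter than the median. Both threat pools were above both control pools in 6 (23.9% of all probe sets on the array were so) and below them in 1 (19.4% of all). An unadjusted p under 0.05 in limma's test was reached by 3 with threat higher (4.87% of all probe sets), of which 2 were those of Trhr, and by 1 with threat lower (5.73% of all). The 6 separate ones thus came to a share near that of the whole array, and 4 of them remain when Trhr is set aside. The brightest probe sets of the 8 genes gave a median of 0.11, with 7 above 0 and 3 with both threat pools higher. Over the brightest probe sets of all 18193 genes the median was 0.024, with 10128 above 0 and 26.2% with both threat pools higher.

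**Figure D3:**
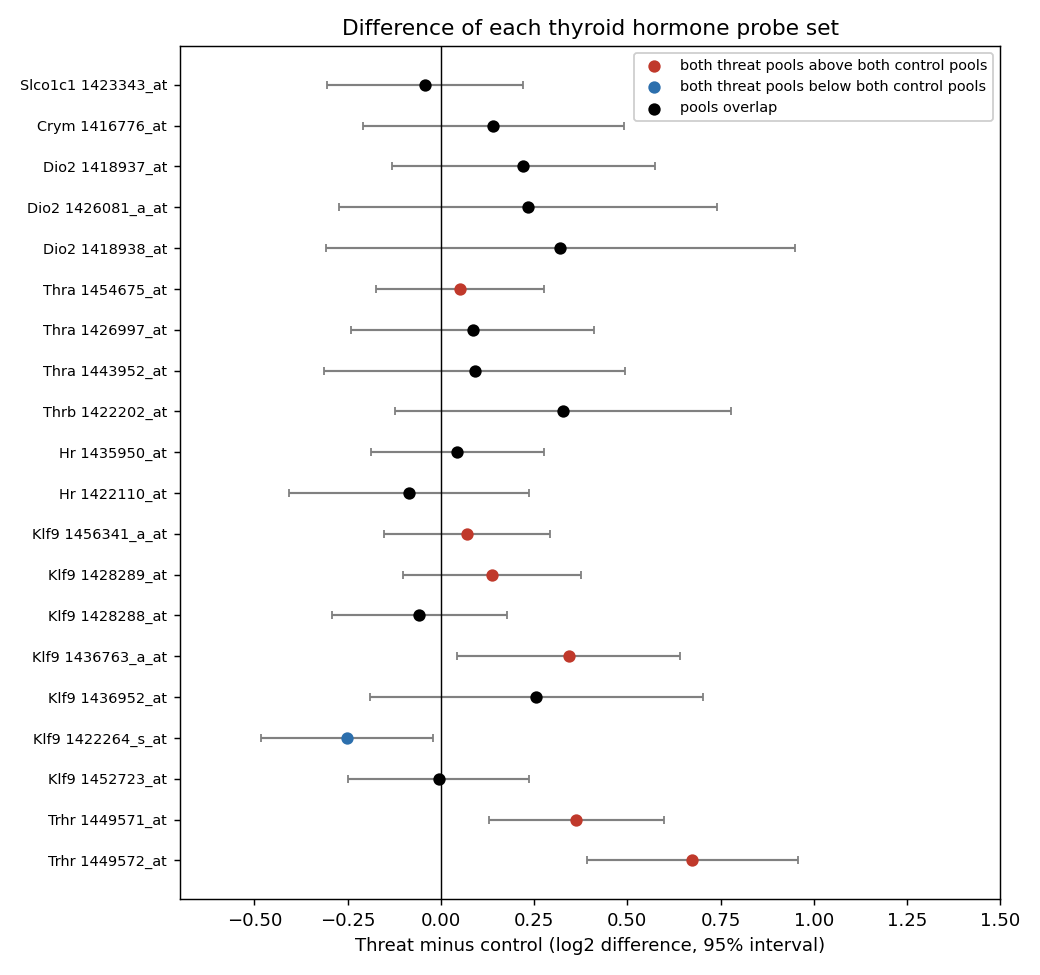
Threat minus control (log2, horizontal axis) for each of the 20 probe sets, with bars for the 95% confidence interval of limma's fit and colours for whether the pools of the groups were separate. Both intervals of Trhr lie above 0, those of 2 Klf9 probe sets lie on opposite sides of 0, and the other 16 include 0.

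The rest of the hormone's pathway was read from lists of other genes, each gene by its brightest probe set. Over the 5 lists of transport, deiodination, receptor partners, the TRH axis and responsive neuronal genes, 42 of 47 genes were measured. Their median was 0.050, with 28 above 0 (10128 of all 18193 genes) and 14 below (8061 of all genes). Both threat pools were above both control pools in 10 and below them in 8 (26.2% and 18.8% over all genes). An unadjusted p under 0.05 was reached by 1 with threat higher and 3 with threat lower, where 4.9% and 5.76% of all genes did so, and the smallest adjusted p was 0.42.

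Among 7 measured transport genes, Ttr, the thyroxine carrier made by the choroid plexus, measured 6.15 and 6.18 in the threat pools, against 9.05 and 6.48 in the control pools. Its difference of -1.60 ± 0.78 (SE) rested on control pool 1, without which it was -0.32. Of 7 choroid plexus and ependyma markers, 5 lay below 0 and 2 above (1 of these, Kcne2, was in the background range in all pools), and their summed linear level was 186 and 193 in the threat pools, against 295 and 222 in the control pools, highest in control pool 1 as for Ttr. Tmem212, Ccdc153, Clic6 and Foxj1 were each highest in control pool 1. Kl was instead highest in threat pool 2 and Folr1 in control pool 2. Both were named after their values were seen, and their pools lay close together, so they cannot show whether the list followed Ttr. The part of choroid plexus tissue in the value of Ttr was not tested. Slc16a10, a transporter of aromatic amino acids and thyroid hormone, was at 0.35 ± 0.095 by its brightest probe set and at -0.35 by another, each with separate groups. Slco1a4, an organic anion transporter of brain vessels, was at -0.28 ± 0.16 and Slc7a5, the large neutral amino acid transporter, at 0.20 ± 0.099. Leaving out a control pool moved Slco1a4 to -0.48 (pool 1) or -0.075 (pool 2), and leaving out control pool 1 moved Slc7a5 to 0.12.

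Among the 4 measured genes of deiodination and disposal, Sult1a1, a sulfotransferase, measured 6.96 and 7.79 in the threat pools, against 8.19 and 8.05 in the control pools, a difference of -0.74 ± 0.27 that ranged from -0.33 without threat pool 1 to -1.16 without threat pool 2. Secisbp2, needed to make selenoproteins such as the deiodinases, was at 0.15 ± 0.10 with both threat pools higher. Dio1 and Iyd were in the background range in all pools.

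Of 14 receptor partners and coregulators, 11 lay above 0 (10128 of all 18193 genes), with a median of 0.066. Both threat pools were higher in 5 (26.2% of all genes) and lower in 1 (18.8%). That 1 was Ncoa2, a steroid receptor coactivator, at -0.47 ± 0.11 by its brightest probe set, while another probe set of it was at 0.42, also with separate groups. Ncoa1, its relative, was at 0.19 ± 0.11, the retinoid X receptor gene Rxrg at 0.15 ± 0.099 and the acetyltransferase gene Crebbp at 0.13 ± 0.11, and without control pool 1 Ncoa1 was at 0.080 and Crebbp at 0.040. Of the 11 neuronal genes reported to answer to the hormone in rodents, 7 lay above 0 and 4 below, with a median of 0.0053. Aldh1a1, a retinoic acid enzyme, was at -0.43 ± 0.24, Reln, the secreted guide of cortical layering, at 0.36 ± 0.23, Shh at 0.23 ± 0.11 and the semaphorin Sema7a at -0.18 ± 0.11. The other probe set of Sema7a was at 0.30, with both threat pools above both control pools, and that of Shh at -0.083. Reln rested on control pool 1, without which it was 0.015, and Aldh1a1 was at -0.10 without control pool 2.

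The myelin genes that thyroid hormone is known to promote in developing rodents had a median of -0.97, with a range of medians from -1.22 to -0.68 when 1 pool was left out. All 5 had both threat pools below both control pools (18.8% of all genes) and an unadjusted p under 0.05 with threat lower in limma's test (5.76% of all genes), with adjusted p of at least 0.41. Mobp was at -1.31 ± 0.23 (SE), Mog at -0.99 ± 0.21, Mag at -0.97 ± 0.18, Cnp at -0.72 ± 0.13 and Mbp, myelin basic protein, at -0.69 ± 0.15. Of 8 probe sets of Mbp, 6 lay below 0 and 2 above. The summed linear level of the 5 genes was 9583 and 11695 in the threat pools, against 20212 and 16299 in the control pools, with no overlap. The direction of this list was known from earlier results of these data and is not independent evidence.

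Over the 20 probe sets of the thyroid hormone genes the lowest bound of a 95% interval was -0.48, that of the s-type probe set of Klf9. Among the other pathway genes, Ttr and Sult1a1 had differences of the size of the myelin genes with all pools. Each rested largely on 1 pool, with Ttr at -0.32 without control pool 1 and Sult1a1 at -0.33 without threat pool 1. Markers of oligodendrocytes other than these myelin genes had a median of -0.68 over 11 genes, all below 0, with Cldn11, the tight junction protein of myelin, at -1.30, Mal at -1.16 and Ugt8a, which makes a myelin galactolipid, at -1.13. Markers of mural and meningeal cells, of vessel walls and brain coverings, were also all below 0. Their median was -0.62 over 9 genes and came to -0.17 without control pool 2. The smooth muscle genes Acta2 (-1.83) and Tagln (-1.44) were the lowest, and came to -1.19 and -0.81 without control pool 2. The mean over the 3 probe sets of Acta2 was -0.73. The summed linear level of the 9 markers was 3255 and 4619 in the threat pools, against 4508 and 7848 in the control pools. The part of these cells in the other differences was not tested. Markers of oligodendrocyte precursors, on which the hormone acts, and of premyelinating cells were read as 1 list, with 4 below 0 and 3 above. Their median of -0.14 turned to 0.20 without threat pool 1 and 0.086 without control pool 2. Both threat pools were below both control pools in 3 of them (18.8% of all genes) and above them in 1 (26.2% of all genes). The lowest, at -0.44, was Enpp6, a gene of premyelinating cells rather than of precursors. Whether the lower myelin genes have any link to thyroid hormone was not tested, and neither hormone levels nor deiodinase activity are among the data used here.

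**Figure D4:**
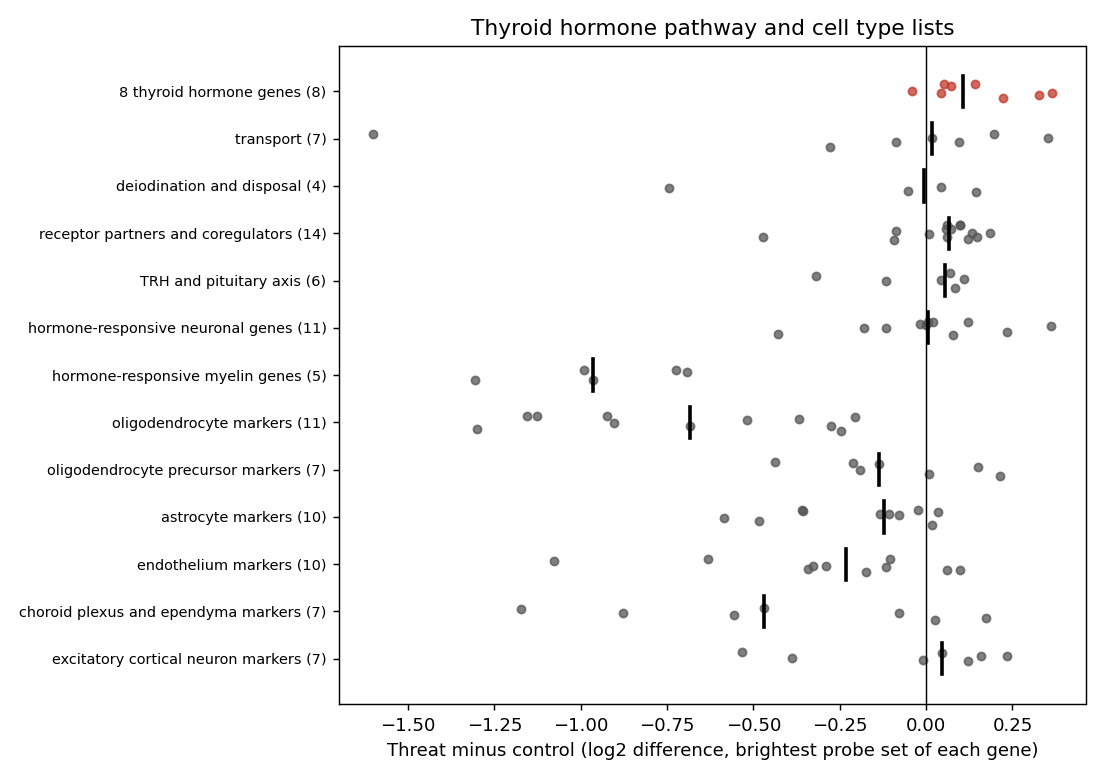
Threat minus control (log2, horizontal axis) for each measured gene by its brightest probe set, in rows for the 8 thyroid hormone genes (red), the other lists of the pathway and cell type markers (grey), with the number of genes in parentheses and black bars for the median. The thyroid hormone genes centre on 0.11 and the other pathway lists on values from -0.0050 to 0.066, while the hormone-responsive myelin genes centre on -0.97 and the oligodendrocyte markers on -0.68. Not drawn are the mural and meningeal markers, all 9 below 0 with a median of -0.62, and the lists of hypothalamic, microglial and striatal markers.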

How the data were processed

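The values deposited by the authors were on a log2 scale, for 4 arrays of prefrontal cortex RNA. RMA, which usually corrects background, equalises the arrays' distributions and summarises probes, is named in the submitters' processing notes, and its version and settings are not stated there. Equalised arrays would hide a shift shared by most transcripts. Scanner files were not used, so no detection calls were made.

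Of 45101 rows, 64 control probe sets were left out. Gene symbols came from the platform annotation, with 34945 probe sets under 1 symbol, 932 under several and 9160 unnamed here. Threat was compared with control with limma (version 3.58.1, R version 4.3.3; lmFit, then eBayes; 2-sided; Benjamini-Hochberg over 45037 probe sets), with 2 residual degrees of freedom and 5.53 after moderation. The median SE of a difference was 0.108, and the number of arrays limits the precision. An exact permutation test of 2 against 2 pools cannot go below p = 0.333, so none was run. The fit was tested on simulated data. Named genes were the 8 members with all probe sets, up to 4 genes per list by size of difference, and Ttr, Nr1d1 and Mbp as single genes. Rax was added as the tanycyte marker, S100b as the end of a range and Kcne2 as a marker at background after their values were seen. Kl and Folr1 were likewise added, as markers without the peak of Ttr. Members and lists were chosen with earlier results of these data known. Alternatives were a replicate block, cyclic loess, median centring, an intensity trend, bright probe sets only, no _x_at or _s_at probe sets, the mean of probe sets, and each pool left out.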

Additional observations from a re-analysis of the deposited data

How the results depend on the processing

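No probe set of the array passed an adjusted p of 0.05 with all pools or under any alternative in limma's test, while 4774 (10.6%) had an unadjusted p under 0.05 with all pools. The count of thyroid hormone probe sets with threat higher at an unadjusted p under 0.05 was 3 with all pools and 2 to 4 elsewhere, and with 1 pool left out likewise 2 to 4, where the share of all probe sets was 4.87% with all pools and 2.62% to 7.47% elsewhere. The count with threat lower was 1, the s-type probe set of Klf9, and came to 0 with median centring, which shifts the median of all probe sets to 0.05, to 0 without _x_at and _s_at probe sets, which removes it, and to 0 with each pool left out. Separate groups with threat lower numbered 1 (19.4% of all probe sets), against 2 with cyclic loess (20.9% of all), 0 without _x_at and _s_at probe sets (18.2%) and 2 to 4 with a pool left out (31.1% to 35.2%). With threat higher they numbered 6 (23.9% of all probe sets), against 8 with median centring (31% of all) and 7 to 12 with a pool left out, where fewer pools have to be separate (37.2% to 40.4% of all).

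Signs turned for the background-level Klf9 probe set 1452723_at, to 0.015 with cyclic loess and 0.030 with median centring. Leaving out 1 pool in turn gave ranges across 0 for that probe set (-0.076 to 0.065), Slco1c1 (-0.13 to 0.050), Crym (-0.041 to 0.32), Dio2 (-0.031 to 0.50 for 1426081_a_at and -0.054 to 0.70 for 1418938_at), Thra (-0.070 to 0.24 for 1426997_at and -0.13 to 0.32 for 1443952_at) and Hr (-0.0061 to 0.093 and -0.23 to 0.062). Hr turned to -0.021 by the mean of its probe sets. The other probe sets of Klf9, Thra and Dio2, and those of Thrb and Trhr, kept their sign with cyclic loess, median centring and each pool left out. The replicate block, the intensity trend and the choices of probe sets leave a difference as it is, so no sign could turn there. The cause of the turned signs was not tested.

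Pools share the numbers 1 and 2 between groups, and the difference of pool 1 and pool 2 correlated at 0.33 between groups across probe sets, but the labels do not say that a number pairs pools. A replicate block by pool number cannot change a difference here, since each group holds both numbers, and alters only its SE. With it, 4 probe sets had an unadjusted p under 0.05 in limma's test with threat higher (6.3% of all probe sets). The added one was Thrb (0.33 ± 0.076, SE), and the smallest adjusted p was 0.37. Dio2 was then at 0.22 ± 0.078, 0.23 ± 0.097 and 0.32 ± 0.16.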
